A study of Mus musculus with 8 samples.

Results

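The enriched intervals of 3 histone marks in mouse neuronal stem cells carrying wild-type histone H3.3 were compared with each other, interval by interval and gene by gene. All intervals that the deposited tables assign to the wild-type H3.3 libraries were taken, and these were 83091 of the 131828 intervals of the series, with 23368 for H3K4me3, 39018 for H3K27ac and 20705 for H3K27me3. Per the labels these were p16Ink4a- and p14Arf-negative cells, given wild-type H3.3 by stable transduction and grown with EGF and bFGF in Neurobasal A; the labels used here name no mouse strain or age and no number of clones. Chromatin was fixed with formaldehyde and immunoprecipitated with Active Motif antibodies. The series has 8 samples, of which 3 were used: the input libraries and those from cells with mutant H3.3 were not used here. Each mark had 1 library, so no result below could be checked between replicates, and p-values were not computed. The intervals in parentheses are exact 95% Clopper-Pearson intervals, which cover counting error only, and neighbouring intervals and genes are not independent. Sequencing depth is unknown.

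H3K4me3 is laid down at promoters by the SET1 and MLL family of methyltransferases and is found at most active and many poised gene starts. H3K27ac, placed by p300 and CBP, marks active promoters and enhancers, and H3K27me3, placed by Polycomb repressive complex 2, marks silenced genes, often over broad domains. The acetyl and methyl marks use the same lysine and cannot sit on the same histone tail. Promoters with both H3K4me3 and H3K27me3 are called bivalent and were first described at developmental genes of embryonic stem cells. In a bulk sample, marks on the same nucleosome and marks on different alleles or in different cells cannot be told apart.

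A gene was assigned by the intervals that overlapped its RefSeq span (GRCm38.p6, the assembly of mm10) plus 1 kb on each side by at least 1 bp. It was called active with H3K4me3 and H3K27ac but no H3K27me3, bivalent with H3K4me3 and H3K27me3, repressed with H3K27me3 but no H3K4me3, and unmarked with none. Bivalent and repressed genes were split by H3K27ac, which gives 8 states with H3K4me3 alone and H3K27ac alone. These names describe the marks, since no RNA was measured. To show what such promoters look like, the RefSeq promoters of 5 genes are printed 5′ to 3′ along the strand of the gene, from 250 bases before its start to 50 after, in lower case with every CG in capitals. Olig2, a regulator of oligodendrocyte and motor neuron fate (chr16:91225300-91225599, plus strand), was active, with 25 CG and a ratio of observed to expected CpG of 0.82. Neurog1, a proneural factor (chr13:56252131-56252430, minus strand), was bivalent without H3K27ac, with 32 CG and a ratio of 0.89. Isl1, a LIM homeobox factor of motor neurons and heart (chr13:116309639-116309938, minus strand), was repressed, with 37 CG and a ratio of 1.05. Krt5, a basal keratin (chr15:101712856-101713155, minus strand), was repressed with 6 CG, and Alb, serum albumin (chr5:90460620-90460919, plus strand), was unmarked with 3 CG.
Olig2: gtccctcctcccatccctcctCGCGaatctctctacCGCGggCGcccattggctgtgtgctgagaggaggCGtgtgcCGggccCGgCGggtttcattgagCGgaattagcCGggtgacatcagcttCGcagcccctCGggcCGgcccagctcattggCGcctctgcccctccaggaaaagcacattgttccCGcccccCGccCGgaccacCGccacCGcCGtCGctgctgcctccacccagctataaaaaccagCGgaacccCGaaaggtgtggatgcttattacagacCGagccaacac
Neurog1: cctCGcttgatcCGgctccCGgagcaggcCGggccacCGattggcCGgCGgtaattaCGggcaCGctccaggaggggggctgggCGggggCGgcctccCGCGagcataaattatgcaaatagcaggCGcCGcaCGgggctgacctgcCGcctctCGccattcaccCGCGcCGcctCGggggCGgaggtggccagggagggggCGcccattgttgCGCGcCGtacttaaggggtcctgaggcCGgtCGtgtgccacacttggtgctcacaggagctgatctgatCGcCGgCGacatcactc
Isl1: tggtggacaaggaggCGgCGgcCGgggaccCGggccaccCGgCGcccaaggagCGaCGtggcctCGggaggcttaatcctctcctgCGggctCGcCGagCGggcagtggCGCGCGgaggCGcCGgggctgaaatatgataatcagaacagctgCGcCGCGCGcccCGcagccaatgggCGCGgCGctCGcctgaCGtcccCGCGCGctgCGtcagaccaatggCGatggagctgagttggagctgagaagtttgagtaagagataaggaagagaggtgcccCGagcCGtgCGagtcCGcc
Krt5: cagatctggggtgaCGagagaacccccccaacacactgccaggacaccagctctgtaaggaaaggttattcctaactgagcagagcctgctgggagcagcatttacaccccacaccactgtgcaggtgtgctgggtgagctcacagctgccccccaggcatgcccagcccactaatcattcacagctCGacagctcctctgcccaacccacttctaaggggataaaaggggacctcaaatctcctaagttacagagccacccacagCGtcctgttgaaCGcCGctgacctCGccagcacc
Alb: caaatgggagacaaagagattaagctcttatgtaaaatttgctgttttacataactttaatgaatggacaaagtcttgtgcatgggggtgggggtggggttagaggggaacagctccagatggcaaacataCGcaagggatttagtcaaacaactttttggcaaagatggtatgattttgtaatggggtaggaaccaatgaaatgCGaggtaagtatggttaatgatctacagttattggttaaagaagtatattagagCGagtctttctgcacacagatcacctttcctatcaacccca

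The 5 loci differed in how far the marks reached. At Olig2 an H3K4me3 interval with a mean tag density of 141 ran from -1013 to 5005 bp relative to the gene's start, and the densest of its H3K27ac intervals had a density of 74.7. At Neurog1 an H3K27me3 interval with a density of 11.9 ran from -14219 to 12180 bp, and inside it lay 2 short H3K4me3 intervals with densities of 20.3 and 19.2. Neurog1 therefore carried both marks at its start, with H3K4me3 well under the median of that list. Isl1, whose promoter had more CG than the other 4, carried an H3K27me3 interval with a density of 15.1 and no H3K4me3 interval. The H3K27me3 interval over Krt5 was wider and less dense, with a density of 6.34. Tag density is the authors' count of tags per bin of about 32 nt and is compared below only within a mark.

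**Figure D1:**
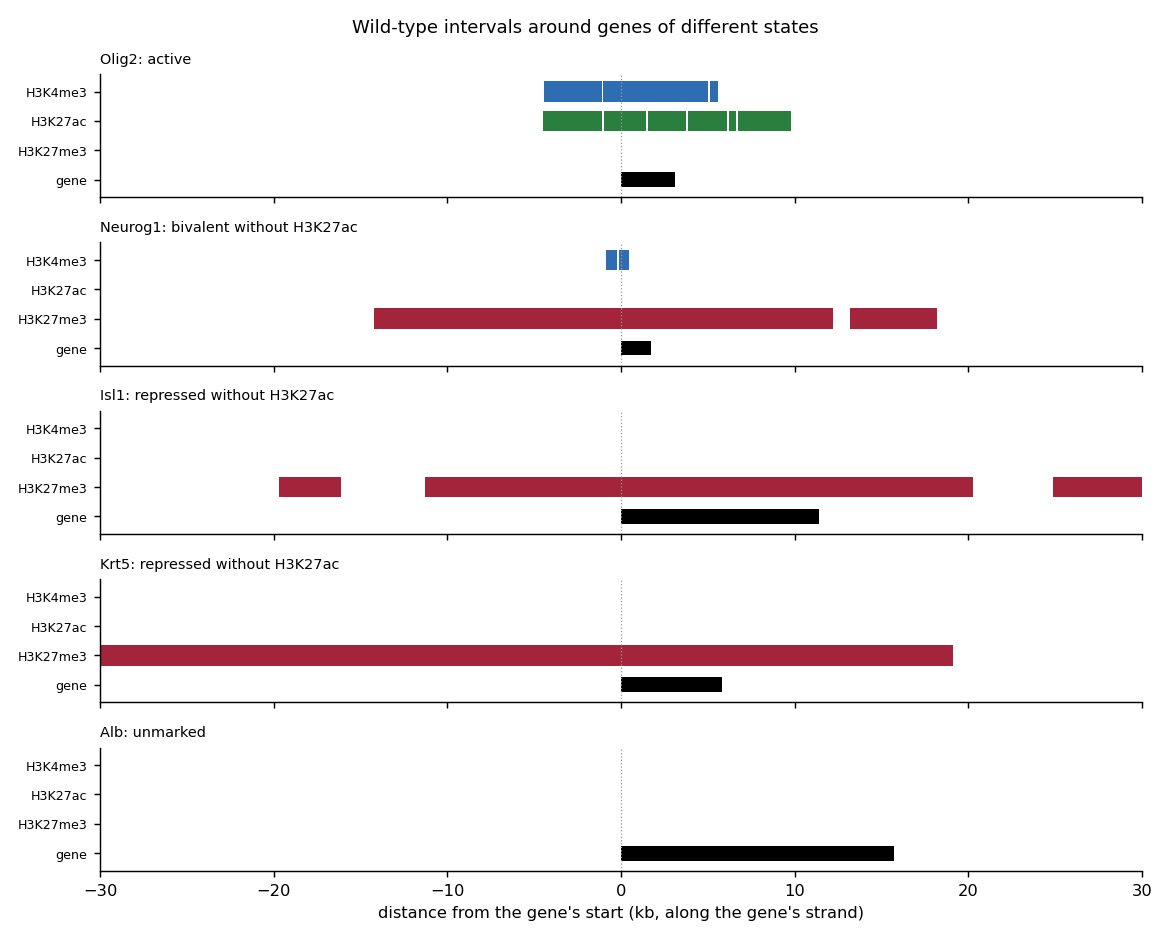
Wild-type intervals of H3K4me3, H3K27ac and H3K27me3 (coloured bars) around 5 genes (black bars), by distance in kb from the gene's start along its strand. Olig2 has H3K4me3 and H3K27ac, Neurog1 has short H3K4me3 intervals inside a broad H3K27me3 interval, Isl1 and Krt5 have H3K27me3 only, and Alb has none.

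H3K4me3 and H3K27ac shared much of their ground, and most H3K27me3 intervals overlapped neither. The overlap of intervals placed without regard to each other was not computed. The shares therefore do not measure avoidance or attraction between marks. Of the H3K4me3 intervals 65.4% (64.8 to 66.0) overlapped an H3K27ac interval and 12.5% (12.05 to 12.9) an H3K27me3 interval. Of the H3K27ac intervals 50.4% (49.9 to 50.9) overlapped H3K4me3 and 2.62% (2.46 to 2.78) overlapped H3K27me3. Of the H3K27me3 intervals 10.8% (10.4 to 11.2) overlapped H3K4me3, 4.05% (3.78 to 4.32) overlapped H3K27ac and 88.0% overlapped neither. The lists were of different shape: H3K27me3 covered 244 Mb with a median interval of 8399 bp, against 33.4 Mb and 1023 bp for H3K4me3 and 31.7 Mb and 515 bp for H3K27ac. In bases, 49.1% of the H3K4me3 length lay in H3K27ac and 6.19% in H3K27me3. Only 635 stretches, 223 kb in all with a median of 293 bp, carried all 3 marks. Where at least 50% of the shorter interval had to overlap, 2.695% of the H3K27me3 intervals met H3K27ac.

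H3K4me3 intervals with H3K27ac, H3K27me3, both or neither differed in size and place. The 14347 with H3K27ac only had a median length of 1771 bp and a median density of 63.95, and 63.9% held a CpG island by the authors' notes. The 1982 with H3K27me3 only were shorter and less dense, at 610.5 bp and 31.4, although 66.9% held a CpG island. The 932 with both were long and dense, at 2139 bp and 73.1, and 86.7% held a CpG island. The 6107 with neither were the shortest and the least dense of the 4 classes, at 354 bp and 21.6, with a CpG island in 20.7%. H3K27me3 was thus met at CpG islands both under weak and under strong H3K4me3. H3K4me3 intervals at a CpG island away from a promoter met H3K27me3 in 26.6% (23.9 to 29.3), against 16.1% for those at a promoter with an island and 5.44% for those with neither.

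Most H3K27ac intervals belonged to 1 of 2 classes of nearly equal size. The 19002 intervals with H3K4me3 only lay at a promoter in 79.3% and held a CpG island in 61.4%, with a median density of 33.5. The 18995 intervals with neither other mark lay at a promoter in 13.6% and held an island in 0.721%, with a median density of 22.4. Enhancers carry H3K4me1 as well, which was not measured here. The median distance of these 18995 H3K27ac intervals to the nearest H3K27me3 interval was 76.2 kb, against 31.9 kb for H3K4me3 intervals with neither other mark.

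The overlap moved with density, and in a different way for each pair. The share of H3K4me3 intervals with H3K27ac was 33.5% in the lowest density decile and 98.6% in the highest. The share with H3K27me3 was 7.71% in the lowest decile, peaked at 22.3% in the fifth and was 7.87% in the highest. Bivalency by interval was therefore met most at intermediate H3K4me3, at densities of 30.8 to 43.1. H3K27me3 intervals met H3K4me3 more often at high density: 1.59% of the lowest decile and 38.3% of the highest overlapped H3K4me3, and a CpG island lay in 1.69% and 45.3%. H3K27ac overlapped H3K27me3 in 1.72% to 3.26% of intervals whatever the H3K27ac density. Longer intervals have more room to overlap, and the median length of H3K27me3 intervals was 6599 bp in the lowest decile and 17999 bp in the highest. By length, 5.15% of H3K27me3 intervals under 5 kb and 36.9% of those of 40 kb or more overlapped H3K4me3.

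**Figure D2:**
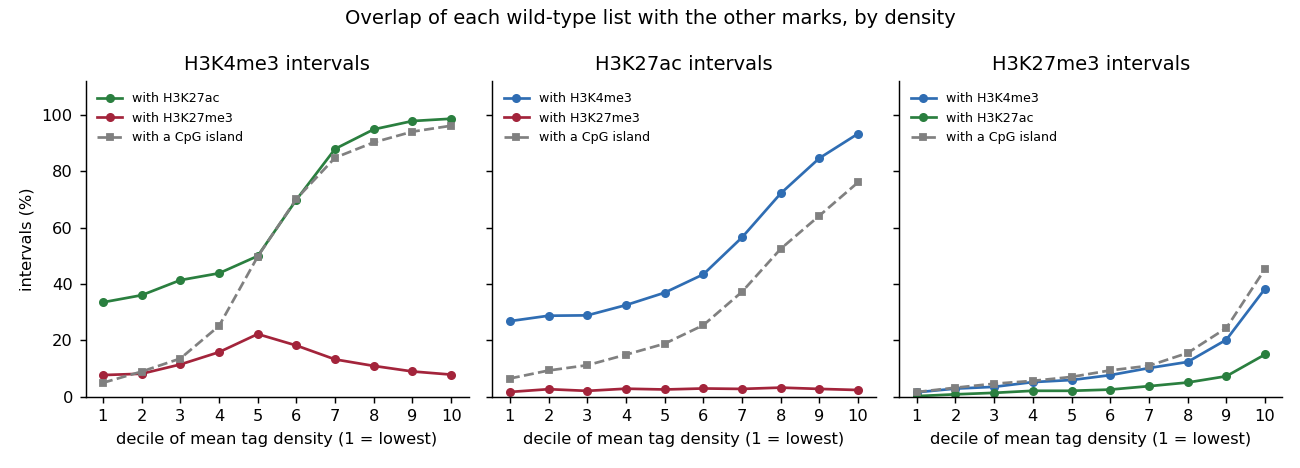
Share of intervals (%) that overlap each of the other marks by at least 1 bp (circles), or hold a CpG island (squares), in each decile of mean tag density, for the 3 wild-type lists. H3K4me3 overlap with H3K27ac climbs with density to 98.6%, whereas its overlap with H3K27me3 is highest, at 22.3%, in the fifth decile.

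Where H3K27me3 met another mark, H3K4me3 intervals lay wholly inside the domain more often than H3K27ac intervals did. Of the 2924 overlapping pairs, 61.5% (59.7 to 63.2) had the H3K4me3 interval wholly inside the H3K27me3 interval, and 46.6% (43.5 to 49.7) of 1025 pairs had H3K27ac wholly inside. Of these pairs, 2178 for H3K4me3 and 698 for H3K27ac had their summit inside the domain. Among the summits inside, the median distance to the domain's edge was 3172 bp for H3K4me3 and 739.5 bp for H3K27ac. Of those inside, 444 H3K4me3 summits (20.4%) and 327 H3K27ac summits (46.8%) lay in the outer 5% at either end of the domain.

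Of the 24350 genes, 9326 (38.3%) were active, 3629 (14.9%) bivalent, 4017 (16.5%) repressed and 6264 (25.7%) unmarked. H3K4me3 alone held 620 genes (2.55%) and H3K27ac alone 494 (2.03%). Of the 3629 bivalent genes 2508 had H3K27ac as well (10.3% of all genes) and 1121 did not (4.6% of all genes). Repressed genes with H3K27ac numbered 221 (0.908% of all genes) and those without it 3796 (15.6% of all genes). By mark, 55.7% of genes had H3K4me3, 51.5% H3K27ac and 31.4% H3K27me3. H3K27ac was in the window of 87.2% of the genes with H3K4me3, against 6.64% of those without. H3K27me3 was in 26.7% of the genes with H3K4me3, against 37.3% of those without. Among genes with H3K27me3 35.7% had H3K27ac, against 58.8% of those without H3K27me3. The bivalent count depended on the definition. It was 5842 with a flank of 5 kb, 2102 of 19528 genes within 1 kb of a RefSeq promoter, 2221 with intervals at or above the median density, and 992 where H3K27me3 covered at least 50% of the window. The repressed count was 2614 of 19528 genes within 1 kb of a promoter and 2603 of all 24350 genes with that coverage. Among the 19528 genes with a promoter entry, the gene window gave 2891 bivalent and 3099 repressed genes. Among 3319 long non-coding RNA genes 22.1% were active and 42.3% unmarked, against 40.9% and 23.1% of 21031 protein-coding genes.

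**Figure D3:**
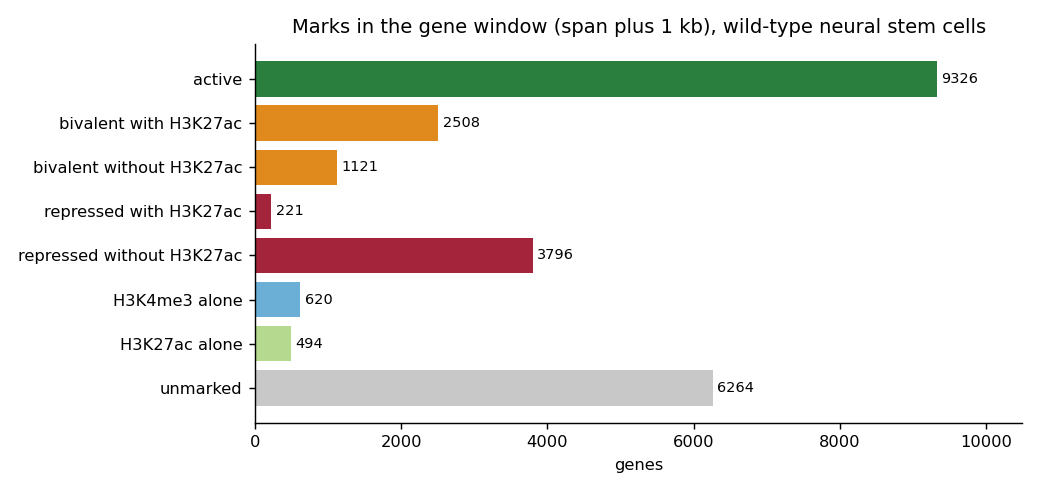
Number of genes in each chromatin state, by the marks that overlap the gene's RefSeq span plus 1 kb (bars, 24350 genes). Active genes are the largest group with 9326, and bivalent genes with H3K27ac (2508) outnumber those without it (1121).

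The 2 kinds of bivalent gene differed in density and coverage. Those without H3K27ac had a median H3K4me3 density of 38.6, close to the 37.7 of genes with H3K4me3 alone, and those with H3K27ac had 74.0, close to the 79.0 of active genes. H3K27me3 covered a median of 50.3% of the gene window without H3K27ac and 7.22% with it, against 75.8% in repressed genes without H3K27ac. An H3K4me3 and an H3K27me3 interval overlapped each other within the window in 932 of 1121 genes (83.1%) without H3K27ac and in 1352 of 2508 (53.9%) with it. In the remaining genes of each kind no H3K4me3 interval of the window overlapped an H3K27me3 interval there. The median span of genes bivalent with H3K27ac was 29.2 kb, against 6154 bp for unmarked genes, and a longer window meets more intervals. Within 1 kb of the RefSeq promoter, 1125 of 2021 genes (55.7%) bivalent with H3K27ac kept that state and 475 (23.5%) were active. Without H3K27ac 650 of 870 (74.7%) kept theirs, and 7012 of 7568 active genes (92.7%) stayed active. Over genes, H3K4me3 and H3K27ac densities had a Spearman rho of 0.47 in active genes, and H3K4me3 and H3K27me3 a rho of -0.02 in bivalent genes without H3K27ac, as descriptions over genes that share the libraries.

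The genes with the densest marks of their state were named by rank. Among active genes Ddx6, an RNA helicase of P-bodies, had an H3K4me3 density of 160.9 and an H3K27ac density of 126.0, and Spry1, an inhibitor of receptor tyrosine kinase signalling, had 183 and 93.8. Among bivalent genes without H3K27ac were Mapk8ip2, a neuronal JNK scaffold, with 107.5 for H3K4me3 and 10.7 for H3K27me3, and Dnmt3b, a de novo DNA methyltransferase, with 93.1 and 12.8. In Dnmt3b H3K27me3 covered 1.96% of the window, and in Mapk8ip2 61.6%. Among bivalent genes with H3K27ac were the splicing factors Snu13 and Smu1, with H3K27me3 over 4.83% and 4.48% of the window. Their H3K27me3 thus reached only a small stretch of the window. The densest repressed genes were Gsc2, a goosecoid-type homeobox gene, at an H3K27me3 density of 39.8, and Hotair, a long non-coding RNA of the HoxC cluster, at 37.8 within an interval of 429799 bp, the longest of the list. Of the 36 genes taken for 6 of the states, 10 lay on chromosome 15, which held 884 of all 24350 genes. That chromosome had a median interval density of 29.7 for H3K27ac and 5.74 for H3K27me3, above the ranges of 25 to 26.97 and 4.56 to 5.17 over the other 18 autosomes. Its H3K4me3 median of 45.3 was within their range, but its H3K4me3 95th percentile of 119.8 was above their 94.6 to 103.6. A change in copy number was not tested.

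Markers of several cell types were counted by state, from lists chosen with earlier results of these data known. Of 25 neural stem and progenitor genes 22 were active (88%), against 38.3% of all genes. Housekeeping genes were active in 92.6% and cell cycle genes in 81.8%, so such a share was not particular to neural stem genes. Nes, the intermediate filament of neural progenitors, had an H3K4me3 density of 138 and an H3K27ac density of 73.5, Sox2, a stemness factor, 78.7 and 87.9, and Fabp7, a radial glial lipid carrier, 119 and 90.0. Pax6 was active by its span with 84.8 and 64.0, but its RefSeq promoter window held none of the 3 marks. The RNA-binding protein gene Msi1 was bivalent with H3K27ac, Id4, an inhibitor of bHLH factors, bivalent without it, and Prom1, which encodes CD133, unmarked. Of 12 microglial markers 7 were repressed (58.3%, against 16.5% of all genes), 2 were bivalent and 2 unmarked (16.7% each, against 14.9% and 25.7% of all genes), and 1, Cd68, was active, although the window of its RefSeq promoter had H3K27ac alone. None of the 12 fibroblast markers was active, against 38.3% of all genes. Of these, 4 were bivalent and 4 unmarked (33.3% each, against 14.9% and 25.7%), and 2 were repressed (16.7%, against 16.5%). Prrx1 had H3K27ac alone and Pdgfra H3K4me3 alone (8.33% each, against 2.03% and 2.55%). Of 10 oligodendrocyte markers Cspg4 and Cnp were active (20%, against 38.3% of all genes) and 5 were repressed (50%, against 16.5%). Of 10 astrocyte markers 5 were active (50%, against 38.3%), among them Slc1a2 and Sox9, the second of which neural stem cells also express. The RefSeq promoter window of Slc1a2 held none of the 3 marks. Gfap was repressed with H3K27ac, at an H3K27me3 density of 12.8. Of 12 endothelial and mural markers 2 were active (16.7%, against 38.3%).

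The gene whose products name the cells' negative status had active marks. Cdkn2a, which encodes p16Ink4a and the Arf protein (chr4:89274473-89294619), carried 7 H3K4me3 intervals with densities of 20.4 to 91.7 over 51.9% of its span and 11 H3K27ac intervals over 36.0%, and no H3K27me3 interval. The labels do not state how the cells came to be negative. Of the other cyclin-dependent kinase inhibitor genes Cdkn1a, Cdkn1b, Cdkn2b and Cdkn2c were also active, Cdkn1c, an imprinted gene, was bivalent at an H3K27me3 density of 11.7, and Cdkn2d was unmarked. Of 22 cell cycle genes 18 were active (81.8%, against 38.3% of all genes), among them Mki67 at 91.9 for H3K4me3 and 64.2 for H3K27ac, and of 27 housekeeping genes 25 were active (92.6%).

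Regulators of other lineages were mostly repressed or bivalent. Of 45 non-neural developmental regulators 27 were repressed (60%, against 16.5% of all genes) and 9 bivalent (20%, against 14.9%). Repressed were Tbx5, a T-box factor of the heart and forelimb, at an H3K27me3 density of 22.6, Pax1, a skeletal factor, at 19.6, and the cardiac and endodermal factors Gata4, Gata5 and Gata6. Foxa3, an endodermal forkhead factor, was bivalent with an H3K4me3 density of 86.6 and an H3K27me3 density of 17.7. Its H3K4me3 interval lay outside the gene's span and covered 4.14% of the window. By promoter window Foxa3 was bivalent with H3K27ac. Foxc1, a mesenchymal forkhead factor, was active at an H3K4me3 density of 83.4, as were Eya1, Pax9 and Tbx2.

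Neuronal fate factors were spread over 5 states. Of 27 such factors 8 were bivalent and 8 repressed (29.6% each, against 14.9% and 16.5% of all genes), 5 were unmarked (18.5%, against 25.7%), 3 were active (11.1%, against 38.3%) and 3 had H3K4me3 alone. Bivalent were the proneural factors Neurog1, Neurog2, Atoh1 and Neurod2 and the differentiation factors Eomes, Lhx1, Pou4f1 and Lhx2, of which Lhx2 alone had H3K27ac. Neurog2 had the strongest H3K4me3 of those without H3K27ac, at 72.2. In Lhx2 H3K27me3 covered 1.63% of the gene window, and by promoter window Neurod2 was repressed. Repressed were Nkx2-1, a ventral forebrain factor, at an H3K27me3 density of 21.7, Ptf1a, a GABAergic fate factor, at 16.7, and the LIM factors Lhx5 and Isl1. Of 20 markers of mature neurons 6 were repressed (30%), 5 bivalent (25%), 4 active (20%), 3 had H3K4me3 alone and 2 were unmarked (10%) by gene window, against 16.5%, 14.9%, 38.3%, 2.55% and 25.7% of all genes in the same order of states. Grin1 and Slc17a7, an NMDA receptor subunit and a vesicular glutamate transporter, were bivalent without H3K27ac at H3K27me3 densities of 24.7 and 34.4. Their H3K4me3 densities of 38.2 and 19.6 were below the list median of 43.1. In Slc17a7 the H3K4me3 interval was 292 bp long and covered 2.06% of the window. Snap25, Syt1 and Syn1, which act in synaptic vesicle release, had H3K4me3 alone, at 92.9, 65.5 and 44.3.

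The Hox clusters had no bivalent gene. Of 39 Hox genes 23 were repressed (59.0%, against 16.5% of all genes), and these rested on 7 H3K27me3 intervals, so they are not separate observations. Every HoxB and HoxC gene of the list was repressed, along with Hoxa10, Hoxa11, Hoxa13 and Hoxd13. Hoxa3 to Hoxa6 and Hoxd3 were active (5 of 39, 12.8%, against 38.3% of all genes), and the other 11 were unmarked (28.2%, against 25.7%). Hoxa3, Hoxa5 and Hoxa6 share their densest intervals, at 60.9 for H3K4me3 and 26.9 for H3K27ac. By promoter window Hoxa5 and Hoxd3 were active, Hoxa3 had H3K4me3 alone and Hoxa6 was unmarked. The H3K27me3 density was 37.8 over Hoxc10 and 33.1 over Hoxb1.

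Of 30 genes of Wnt, BMP, Hedgehog and Notch signalling 13 were bivalent by gene window (43.3%, against 14.9% of all genes) and 14 active (46.7%, against 38.3%). By promoter window 4 of the 20 with a promoter entry were bivalent and 12 active. By gene window the ligands Shh and Wnt3 and the antagonist Nog were bivalent without H3K27ac, as was the Hedgehog effector Gli1, at 61.5 for H3K4me3 and 11.1 for H3K27me3. The receptor genes Ptch1 and Notch2 and the ligand Bmp7 were bivalent with H3K27ac, and in Bmp7 H3K27me3 covered 0.702% of the window. By promoter window Wnt3 was repressed and Ptch1 active, while Notch2 was again bivalent. The ligands Wnt1 and Wnt3a were repressed, at H3K27me3 densities of 28.4 and 22.4, whereas Wnt7b, Dll1 and Notch1 were active.

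Of 27 Polycomb genes 19 were active (70.4%, against 38.3% of all genes), 7 bivalent (25.9%, against 14.9%) and 1, Pcgf1, had H3K4me3 alone. Ezh2, the main methyltransferase of the repressive complex, was active at 69.0 for H3K4me3 and 64.5 for H3K27ac, and so were Eed and Suz12. Cbx6 and Cbx7, whose proteins read H3K27me3, were bivalent with H3K27ac by gene window, at H3K27me3 densities of 14.9 and 11.5, and both lie on chromosome 15. In neither did an H3K4me3 interval overlap an H3K27me3 interval, and by promoter window Cbx6 was active and Cbx7 had H3K4me3 alone. The H3K27 demethylase gene Kdm6b was bivalent with H3K27ac, at an H3K27me3 density of 6.53 over 3.22% of the window. Of 20 genes for H3K4 and H3K27 modifying enzymes and their partners 18 were active (90%, against 38.3%). Of 18 pluripotency and germline genes 10 were repressed (55.6%, against 16.5% of all genes), among them Lin28a at an H3K27me3 density of 14.8 and Pou5f1, and 7 unmarked (38.9%, against 25.7%), among them Nanog and Dppa3. Of 31 genes for terminal products of other tissues 12 were repressed (38.7%, against 16.5% of all genes), 10 unmarked (32.3%, against 25.7%), 8 bivalent (25.8%, against 14.9%) and 1, Apoa2, active. By promoter window 2 of 25 were bivalent.

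Imprinted genes, in which each allele can carry its own marks, held 6 active, 6 bivalent and 6 repressed members of 21, or 28.6% each (11.3 to 52.2), an interval that covers the 38.3%, 14.9% and 16.5% of all genes. Ndn was bivalent at 61.7 for H3K4me3 and 14.1 for H3K27me3, and Kcnq1 bivalent with H3K27ac. Igf2 was repressed at 11.1 and H19 at 6.30. Alleles were not told apart in these tables.

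**Figure D4:**
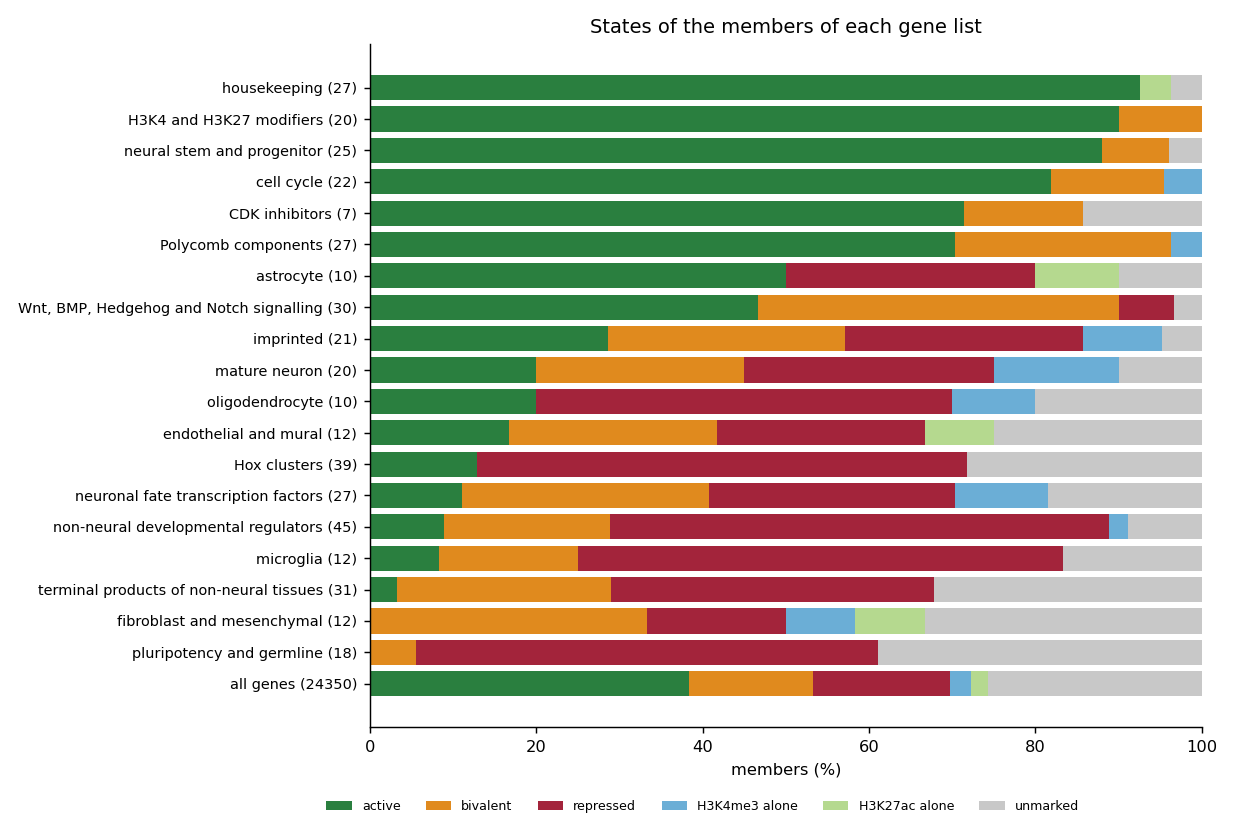
Share of the members of 19 gene lists in each chromatin state (%, members in parentheses), with all 24350 genes in the bottom bar. Housekeeping and neural stem lists are mostly active, whereas the non-neural developmental list is 60% repressed and the signalling list 43.3% bivalent, all by gene window.

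Promoter CpG content differed between the states. The median ratio of observed to expected CpG in the 300-base RefSeq promoter was 0.80 in active genes, 0.74 and 0.64 in bivalent genes with and without H3K27ac, 0.25 in repressed genes without H3K27ac and 0.19 in unmarked genes, over 19528 genes with a promoter entry. Active promoters had a median of 22 CG, bivalent ones without H3K27ac 17, repressed ones without H3K27ac 5 and unmarked ones 3. The repressed promoter of Isl1, with 37 CG, was thus far from the median of its state, and that of Krt5, with 6, was near it. By quintile of the ratio, 4.79% of genes were active in the lowest and 71.9% in the highest, and 60.8% and 3.25% were unmarked. The bivalent share was 4.23% in the lowest quintile and 19.4% in the highest, and the repressed share 26.8% and 2.87%.

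**Figure D5:**
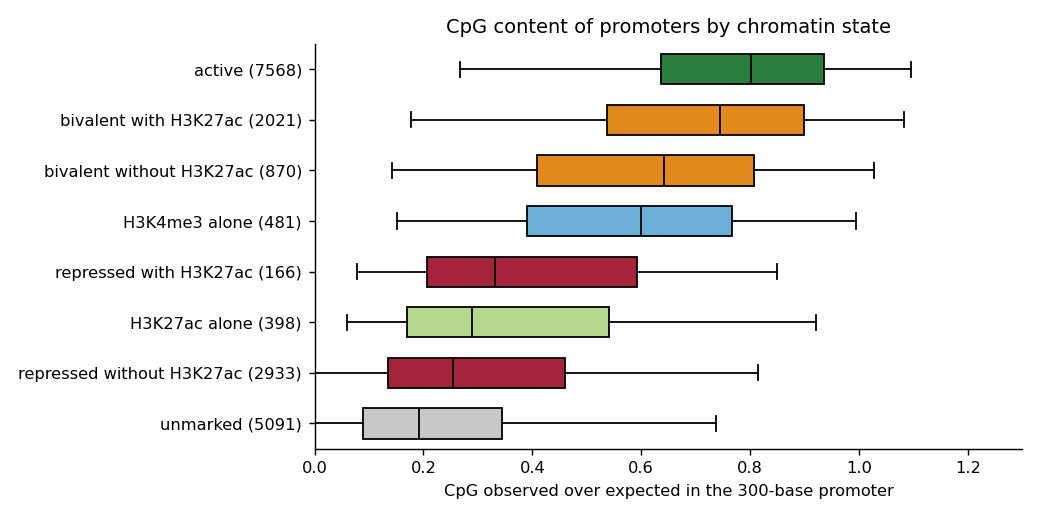
Ratio of observed to expected CpG in the 300-base promoter of the genes in each state (genes in parentheses). Boxes span the quartiles with the median as a line, and whiskers run from the 5th to the 95th percentile; active and bivalent genes lie to the right of repressed and unmarked genes.

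The shares of the same promoters with each of 7 short motifs, on either strand, differed between states for some motifs and little for others. States here are by gene window unless stated. The TATA element TATAAA was in 6.34% of active and 25.1% of unmarked promoters, against 13.0% of all promoters, and in 15.7% of repressed ones without H3K27ac. The GC box GGGCGG was in 67.2% of active, 62.5% of bivalent without H3K27ac and 25.3% of repressed promoters without H3K27ac, against 45.0% of all. With states by promoter window it was in 68.6%, 69.9% and 28.2% of these groups, so active promoters did not exceed bivalent ones there. The ETS-type motif CCGGAAGT was in 9.20% of active promoters and 1.95% of bivalent ones without H3K27ac, against 5.08% of all, and the NRF1-type motif (GCGC, any base, then TGCGC) in 11.6% and 2.87%, against 6.38%. In bivalent genes with H3K27ac these motifs were in 6.93% and 9.80%. The E-box CACGTG was in 10.6% of active, 9.31% of bivalent without H3K27ac, 6.44% of repressed without H3K27ac and 4.34% of unmarked promoters, against 8.04% of all. The E-box CAGCTG was in 14.2%, 18.4%, 19.7% and 14.5% of the same 4 groups, against 15.7% of all. The CCAAT motif was in 34.6% to 41.8% of the promoters of active, bivalent, repressed without H3K27ac and unmarked genes. A match is a description of letters and not of binding.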

How the data were processed

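H3K4me3, H3K27ac and H3K27me3 were profiled by chromatin immunoprecipitation sequencing, with 1 library each from cells with wild-type H3.3. The submitters' processing notes name BWA, SICER and mm10. Tool versions and roles, calling thresholds and whether inputs entered: not given in the sources used here. In this work each deposited list was taken as called. The deposited interval tables, 1 list per library, give for each interval a mean and a highest signal, which per the file headers are tag densities; mean density times bins was whole (tolerance 0.05) in 99.5% to 100% of intervals. Total depth is unknown. Because the density scale belongs to each library, densities were compared within a mark only.

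Overlaps of at least 1 bp were computed with Python 3.11.15, pandas 2.3.3 and numpy 2.4.6, and exact intervals with scipy 1.17.1; the overlap code was tested on simulated data. Genes were 24350 RefSeq genes of GRCm38.p6 (21031 protein-coding, 3319 long non-coding); 19528 had a RefSeq promoter sequence and 4822 did not. A gene's value for a mark is its densest interval in the window. Where promoters were used, marks within 1 kb of any promoter of the gene counted, and composition came from the promoter farthest 5′. Expected CpG is C count times G count over length. The 19 lists held 410 genes; Ighm was not matched. Named were the 6 densest genes of 6 states by mean percentile rank, 1 per set of intervals, up to 3 members of each list in each state, and a fixed set. Other members are named beside them, some after their values were seen. The members and lists were chosen with earlier results of these data known. Alternatives covered the overlap, the gene window, density, H3K27me3 coverage, gene class and chromosomes.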

Additional observations from a re-analysis of the deposited data

How the results depend on the processing

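Of 72 alternative values 49 moved by less than the counting interval or stayed within 1.5 times, and 23 moved. Gene counts by promoter window covered 19528 genes but were compared here with counts over all 24350. Active and unmarked counts stayed within 1.5 times in every alternative run. With an overlap of at least 200 bp the shares were 63.03% (H3K4me3 on H3K27ac), 11.11% (H3K4me3 on H3K27me3), 47.67% (H3K27ac on H3K4me3), 1.973% (H3K27ac on H3K27me3), 9.611% (H3K27me3 on H3K4me3) and 3.062% (H3K27me3 on H3K27ac). With 50% of the shorter interval they were 9.064% (H3K4me3 on H3K27me3), 1.766% (H3K27ac on H3K27me3), 7.534% (H3K27me3 on H3K4me3) and 2.695% (H3K27me3 on H3K27ac). With intervals at or above the median density they were 78.66% (H3K4me3 on H3K27ac), 10.09% (H3K4me3 on H3K27me3), 56.73% (H3K27ac on H3K4me3) and 2.419% (H3K27ac on H3K27me3). Without chromosome 15, an alternative chosen after seeing the data, H3K27ac on H3K27me3 was 2.416%. Bivalent genes numbered 5842 with a flank of 5 kb, 2102 of 19528 by promoter window, 2221 with intervals at or above the median density, 2284 with overlapping intervals and 992 where H3K27me3 covered at least 50% of the window. Repressed genes numbered 2614 of 19528 by promoter window and 2603 of all 24350 with that coverage. Among those 19528 genes the gene window gave 2891 bivalent and 3099 repressed genes. Each of these was within 1.5 times of its promoter-window count. The share of bivalent promoters with a CpG ratio of at least 0.6 was 73.6% by promoter window, against 65.5% by gene window. The cause was not tested. No paired analysis was possible because each mark had 1 library. Unknown depth limits what an absent interval means.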

Other observations

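Large gene families, grouped by symbol after the state counts had been seen, differed in state. Over all genes 38.3% were active, 14.9% bivalent, 16.5% repressed and 25.7% unmarked. Of 1108 olfactory receptor genes 934 (84.3%) were unmarked and 173 (15.6%) repressed, and of 353 vomeronasal receptor genes 325 (92.1%) were unmarked. Of 53 keratin genes 43 (81.1%) were repressed. Of 81 ribosomal protein genes 63 (77.8%) were active, and of 75 mitochondrial ribosomal protein genes 59 (78.7%). Potassium channel genes held 31 bivalent (33.7%) and 26 repressed members of 92. Of 366 Zfp zinc finger genes 199 (54.4%) were active and 81 (22.1%) bivalent.

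Genes of the same state also lay in runs along the chromosomes. The longest unmarked run was 208 genes on chromosome 2, of which 205 were olfactory or vomeronasal. The longest repressed runs held 18 genes each, from Tspear to Krtap10-4 on chromosome 10 and from Calcoco2 to Skap1 on chromosome 11, which spans HoxB. A run of 17 active genes on chromosome 13, from H2ac10 to H2bc4, held histone genes. The longest bivalent runs held 6 genes. On the X chromosome 4.21% of 997 genes were bivalent and 47.3% unmarked, against 14.9% and 25.7% of all genes. Median interval density on X was 23.4 for H3K27ac and 3.99 for H3K27me3. These lie below the ranges of 25 to 26.97 and 4.56 to 5.17 over the 18 autosomes other than chromosome 15. The H3K4me3 median of 38.7 was within their range. Whether weaker signal left fewer intervals on X was not tested.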
